A study of Mus musculus with 12 samples.

Results

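The secreted Wnt inhibitors are the genes of the Sfrp, Dkk and Wif families, and 9 of them were followed here: Sfrp1, Sfrp2, Sfrp4, Sfrp5, Frzb, Wif1, Dkk1, Dkk2 and Dkk3. They were taken by gene symbol from the probe annotation of the array, which gave 12 of 45281 probes. Of these, 6 probes for 4 genes were detected well enough to be tested, among 20995 probes tested in all, and 6 probes were not. Dkk3 and Sfrp1 each had 2 tested probes, while Sfrp2 and Wif1 each had 1. Dkk1, Dkk2, Frzb, Sfrp4 and Sfrp5 had none.

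RNA came from mammary glands of female FVB/NJ mice, a white inbred strain, and was hybridised to Illumina BeadChips. Cells positive for CD45, CD31 or TER119, which mark blood and vessel lining cells, were gated out. The surface proteins CD24 and CD29 then divided the rest into the MaSC-enriched fraction (CD29hi CD24+), named for its mammary stem cells, and a luminal fraction (CD29lo CD24+), at a stated purity over 90%. The ovariectomized (ovx) mice had their ovaries removed at 8 weeks of age and were sampled 4 weeks later, with 6 mice in each pool. Control mice carried no ovariectomy, and the labels state neither their age nor the size of their pools. Both fractions were taken from every one of 4 mouse pools, which makes 4 groups of 2 RNA samples. There were 12 arrays on 2 beadchips, since 4 RNAs were hybridised again. A whole pool, not a mouse, is the replicate.

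The sort labels were borne out by marker genes. Of 13 tested basal and myoepithelial markers, 13 were higher in the MaSC-enriched fraction over both treatments, and of 12 tested luminal markers 11 were lower there. The basal list includes Itgb1, which encodes CD29, a protein used for the sort, so this gene is no separate support. The MaSC-enriched fraction also gave more signal for stromal and vascular markers, although CD31+ cells had been removed: 7 of 7 tested endothelial markers, 7 of 8 pericyte markers, 5 of 14 fibroblast markers, 3 of 4 adipocyte markers and 2 of 4 immune markers were higher in it. The array of control MaSC-enriched replicate 1 detected 12994 probes against 17705 to 18903 on the other 11, and its detection floor, the lowest log2 level of a detected probe, was 7.29 against 5.73 to 5.93. Control replicate 2 gave high levels of proliferation genes in both fractions, with Cdk1 at 11.59 and 11.64 there and at 5.37 to 7.66 in the other 6 samples. No member call changed without control MaSC-enriched replicate 1, and the Sfrp1 calls that changed without the control replicate 2 samples are given below.

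Wnt proteins are secreted signals that bind Frizzled receptors and the co-receptors Lrp5 and Lrp6 and stabilise beta-catenin in the receiving cell, and in the mammary gland this pathway is known for maintaining basal stem cells. The secreted inhibitors act outside the cell: the Sfrp proteins and Frzb carry a Frizzled-like domain and bind Wnt ligands, Wif1 binds Wnt ligands through a domain of its own, and Dkk1 and Dkk2 bind Lrp5 and Lrp6. Dkk3 is the divergent member of its family, is not known to bind these co-receptors in the same manner, and is studied mostly as a gene silenced in tumours.

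The reference table of promoters held an entry for 6 of the 9 genes. Wif1 and Sfrp2 are shown because they are the tested members with an entry, and because the fraction difference passed the test in both treatments for Wif1 but only in control mice for Sfrp2. Each window runs from 250 bases before to 50 bases after the annotated start of the gene in RefSeq on GRCm38.p6, 5′ to 3′ on the strand of the gene. Capitals mark matches, on either strand, to CAGGTG, an E-box bound by Snail-family factors of basal cells, and to GGTCA, the half-site of the oestrogen receptor. The Wif1 window lies at chr10:121033754-121034053 on the plus strand, and the Sfrp2 window at chr3:83766071-83766370 on the plus strand.
Wif1: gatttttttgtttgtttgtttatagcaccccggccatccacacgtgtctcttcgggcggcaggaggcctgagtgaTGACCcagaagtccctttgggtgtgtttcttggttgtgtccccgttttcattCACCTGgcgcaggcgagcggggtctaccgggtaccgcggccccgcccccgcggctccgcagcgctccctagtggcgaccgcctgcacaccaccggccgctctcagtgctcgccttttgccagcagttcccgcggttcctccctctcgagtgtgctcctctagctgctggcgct
Sfrp2: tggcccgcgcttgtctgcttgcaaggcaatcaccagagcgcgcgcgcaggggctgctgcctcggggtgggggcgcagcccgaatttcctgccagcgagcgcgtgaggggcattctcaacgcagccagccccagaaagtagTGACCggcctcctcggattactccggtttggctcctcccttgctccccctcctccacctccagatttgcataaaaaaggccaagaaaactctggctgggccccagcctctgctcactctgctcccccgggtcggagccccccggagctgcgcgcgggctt
The Wif1 window held 1 CAGGTG, 123 bases before the start, and 1 GGTCA, 175 bases before it. The Sfrp2 window held 1 GGTCA, 110 bases before the start, and no CAGGTG. Among all 32851 windows of this length, 20.2% held CAGGTG and 40.5% held GGTCA, so both matches are common. Neither window held CTTTGAT, the core of a TCF/LEF site (3.73% of all windows), or AGAACA, the half-site of the progesterone receptor (19% of all windows). The matches did not overlap each other. Both windows held more CpG than the median of 7 over all windows, with 25 in Wif1 and 22 in Sfrp2. Of all windows, 83.1% held as many as Wif1 or fewer, and 78.5% as many as Sfrp2 or fewer. Among the members with no tested probe, the Sfrp5 window held both CAGGTG and GGTCA, and those of Dkk1 and Frzb held GGTCA only.

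Wif1, Dkk3 and Sfrp1 were all far higher in the MaSC-enriched than in the luminal fraction, both with and without ovariectomy. For Sfrp2 the fraction difference passed the test in control mice, and its 2 fractions overlapped after ovariectomy, while the difference between the treatments did not itself pass (limma adjusted p = 0.753). In control mice all 6 tested probes passed the test as higher in MaSC-enriched cells, where 5.56% of all tested probes did. In ovx mice 5 of 6 passed, against 7.32% of all probes, and over both treatments 6 of 6 passed, against 11.5%. The median difference of the 6 probes over both treatments was 5.18 on the log2 scale, against -0.14 for all tested probes. None was lower in MaSC-enriched cells. Median scaling, in place of quantile normalization, moved the median of all probes between the fractions from -0.14 to -0.55 over both treatments, left 5 of 6 member probes called, and changed the split of all calls from 2421 higher and 2675 lower to 1437 higher and 2902 lower. In control mice that split went from 1168 higher and 954 lower to 448 higher and 1028 lower. In bulk RNA of this kind, more cells of a type and more RNA in each cell cannot be told apart.

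Wif1 had the smallest fitted error of the members, but also the largest difference between repeat arrays of 1 RNA (0.917). Its log2 level was 13 and 12.96 in control MaSC-enriched cells and 12.38 and 12.81 in ovx MaSC-enriched cells. In luminal cells it was 6.97 and 7.22 in control and 6.08 and 6.37 in ovx mice. The 4 MaSC-enriched samples all lay far above the 4 luminal ones. The difference was 5.89 in control mice (SE 0.308, 59.2-fold, limma adjusted p = 0.000398) and 6.37 in ovx mice (SE 0.308, adjusted p = 0.000263). Since 2 of 3 ovx luminal arrays detected the probe, the fold after ovariectomy is given as at least 80.6-fold, with undetected arrays raised to their detection floor. Over both treatments Wif1 had the fifth smallest p of the 20995 probes, with a difference of 6.13 (adjusted p = 3.16e-05).

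Dkk3 was the member with the largest fraction difference in ovx mice. Its brighter probe read 12.85 and 12.16 in control MaSC-enriched samples and 13.76 and 13.68 in ovx MaSC-enriched samples. In luminal cells it read 7.07 and 8.26 in control mice and 5.59 and 6.96 in ovx mice. The fractions did not overlap in either treatment. The difference was 4.84 in control mice (SE 0.578, 28.6-fold, limma adjusted p = 0.00396) and 7.44 in ovx mice (SE 0.578, adjusted p = 0.000714). Because 1 of 3 ovx luminal arrays detected the probe, the value in ovx mice is given as at least 159-fold, with undetected arrays at their floor. The second tested probe gave 4.96 and 7.28 in the same comparisons, with 2 of 3 ovx luminal arrays detected.

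Sfrp1, which binds Wnt ligands and was first described as a soluble Frizzled-like protein, was also higher in MaSC-enriched cells of every pool. Its brighter probe read 11.19 and 10.49 in control MaSC-enriched cells and 13.48 and 13.37 in ovx MaSC-enriched cells. It read 6.49 and 7.96 in control luminal and 8.52 and 8.64 in ovx luminal cells, so luminal cells held a detected level on all 6 arrays. The difference was 3.62 in control mice (SE 0.508, 12.3-fold, limma adjusted p = 0.00691) and 4.84 in ovx mice (SE 0.508, 28.6-fold, adjusted p = 0.00196). The second probe gave 3.55 and 4.93. The control value rested on pools that differed: 4.70 in replicate 1 and 2.53 in replicate 2. Within beadchip 1 alone the control differences were 4.54 and 3.90 for the 2 probes, with limma adjusted p = 0.0502 and 0.0567, but this beadchip holds 1 control luminal sample, which is assumed to vary like the other groups.

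Sfrp2, another Frizzled-like Wnt-binding protein, made in many tissues by mesenchymal cells, was the weakest of the 4. It read 8.63 and 8.53 in control MaSC-enriched and 7.20 and 7.97 in ovx MaSC-enriched cells, against 6.62 and 6.80 in control luminal and 7.33 and 7.33 in ovx luminal cells. In control mice the fractions were apart by 1.87 (SE 0.341, 3.66-fold, limma adjusted p = 0.0171). In ovx mice they overlapped, with a difference of 0.25 (95% interval -0.55 to 1.05, adjusted p = 0.73). The difference over both treatments was 1.06 (adjusted p = 0.0191), but this call and the control call were lost under several settings: under median scaling they were 0.60 (adjusted p = 0.298) and 1.09 (adjusted p = 0.236), where the medians of all probes were -0.55 and -0.78. The control call was also lost without control luminal replicate 1 (1.78, adjusted p = 0.106), control luminal replicate 2 (1.96, adjusted p = 0.0567) or either ovx luminal replicate (1.87, adjusted p = 0.0542). The call over both treatments was lost without ovx MaSC-enriched replicate 2 (0.87, adjusted p = 0.054), control luminal replicate 1 (1.02, adjusted p = 0.0649), ovx luminal replicate 1 (1.06, adjusted p = 0.0876) or ovx luminal replicate 2 (1.06, adjusted p = 0.0841), and with beadchip as a block over 12 arrays (1.09, adjusted p = 0.0635). Each fit without a replicate leaves 1 sample in that group, which is assumed to vary like the others. In the ovx pools the difference was -0.14 in replicate 1 and 0.64 in replicate 2.

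**Figure D1:**
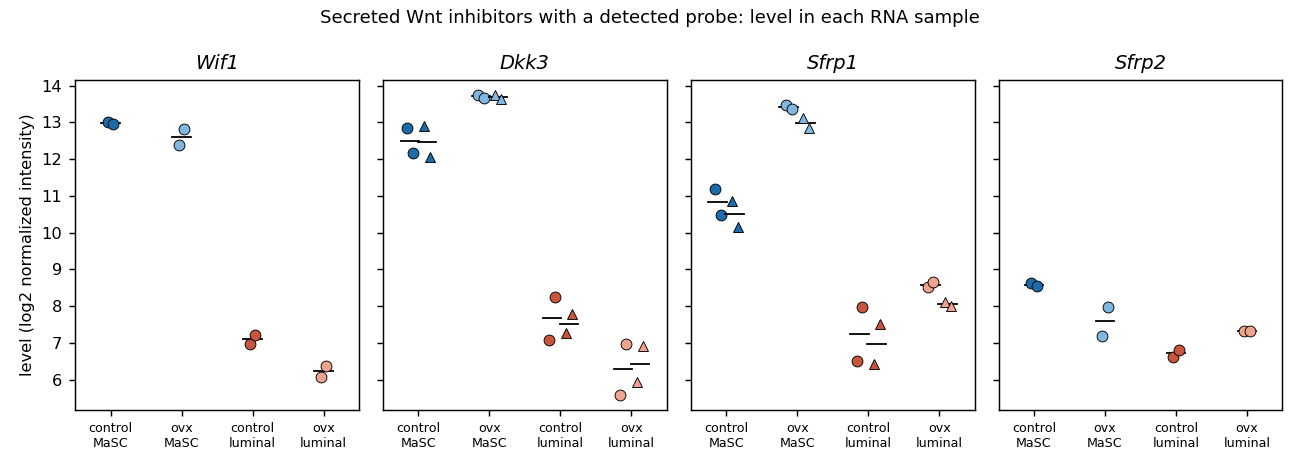
Level of Wif1, Dkk3, Sfrp1 and Sfrp2 (log2 normalized intensity) in each of the 8 RNA samples by group. Circles are the brighter probe, triangles the second probe, horizontal bars the mean of 2 samples, and levels of different genes are not comparable. The MaSC-enriched samples of Wif1, Dkk3 and Sfrp1 lie above every luminal sample, and those of Sfrp2 overlap with luminal samples after ovariectomy.

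Within a single mouse pool the fraction difference can be read with no other pool. For Wif1 it was 6.03 and 5.74 in the control pools and 6.30 and 6.45 in the ovx pools, a narrow range. For Dkk3 it was 5.78 and 3.90 in control and 8.17 and 6.72 in ovx pools, so both ovx pools lay above both control pools. For Sfrp1 it was 4.70 and 2.53 in control and 4.96 and 4.72 in ovx pools. The lower ovx pool was thus nearly equal to control replicate 1. Control replicate 2 had the lowest difference of the 4 pools for Dkk3, Sfrp1 and Wif1. Repeat arrays of the same RNA differed for the 6 probes by a median of 0.234 and at most 0.917 (24 pairs). The largest was Wif1 in ovx luminal replicate 1. For Wif1 the second array read lower than the first in all 4 repeated RNAs, by 0.249 to 0.917.

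**Figure D2:**
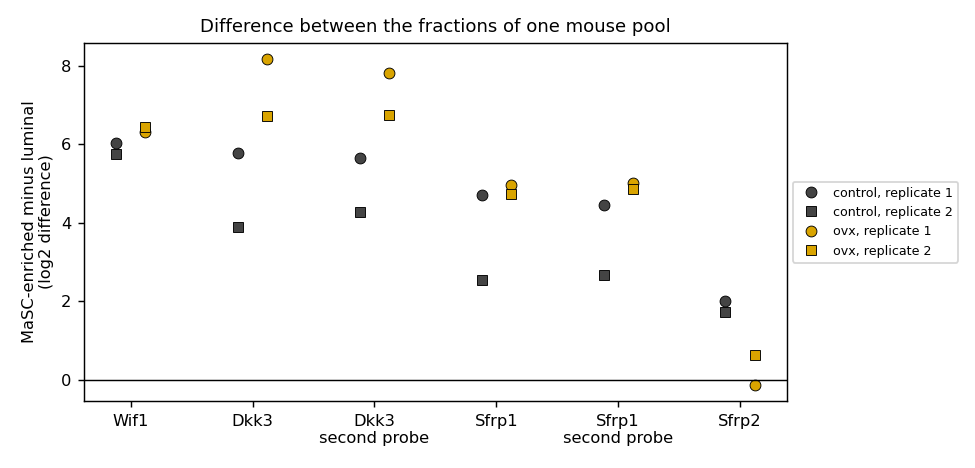
MaSC-enriched minus luminal difference (log2) for each tested probe within each of the 4 mouse pools. Grey points are control pools, yellow points ovx pools, circles replicate 1 and squares replicate 2. All points lie above 0 except Sfrp2 in ovx replicate 1, at -0.14.

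The order of the 4 groups was not the same for the members. For Dkk3 it ran from ovx MaSC-enriched through control MaSC-enriched and control luminal to ovx luminal. For Sfrp1 it ran from ovx MaSC-enriched through control MaSC-enriched and ovx luminal to control luminal. Wif1 was highest in control MaSC-enriched cells, then ovx MaSC-enriched, control luminal and ovx luminal cells. Sfrp2 began with control MaSC-enriched cells and ended with control luminal cells. Neighbouring groups in these orders did not overlap, with 1 exception, Sfrp2 in the ovx MaSC-enriched and ovx luminal samples. Over both treatments 5 of the 6 probes had all 4 MaSC-enriched samples above all 4 luminal ones, where 12.3% of all tested probes did.

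Marker sums of the cell types below were higher in MaSC-enriched than in luminal samples within each treatment, except for fibroblasts. The fibroblast sums of the control fractions overlapped. The summed level of 8 pericyte markers was 3720 to 9426 in control MaSC-enriched, 10547 to 20857 in ovx MaSC-enriched, 2430 to 2601 in control luminal and 3816 to 4519 in ovx luminal samples. The sum of 8 endothelial markers was 12608 to 24379 and 15689 to 39135 in control and ovx MaSC-enriched samples, against 2950 to 5641 in luminal samples. The sum of 14 fibroblast markers was 29427 to 40173 in control and 26930 to 31758 in ovx MaSC-enriched samples, 24384 to 33369 in control luminal and 4441 to 13524 in ovx luminal samples. Without Dcn, the matrix protein decorin, the control fibroblast sums did not overlap. They were then 11547 and 21021 in MaSC-enriched and 2277 and 8322 in luminal samples. Between 9 and 14 of the 14 fibroblast markers were detected in each sample. The sum of 8 adipocyte markers was 803 to 1192 in control and 3211 to 3451 in ovx MaSC-enriched samples, and 345 to 402 in control and 522 to 799 in ovx luminal samples. Of these markers Fabp4, Plin1, Cidec and Retn were detected in no sample. The sum of 14 basal and myoepithelial markers was 158310 to 162698 in control and 162657 to 174382 in ovx MaSC-enriched samples, 12699 to 18027 in control luminal and 6559 to 9683 in ovx luminal samples. The part of these cells in the levels of the inhibitors was not tested.

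The remaining members gave almost no signal in either fraction. Dkk1, which blocks Lrp5 and Lrp6, was detected on 2 of 12 arrays: on 1 of the 2 arrays of control luminal replicate 1, and at 7.55 in control MaSC-enriched replicate 1, whose array had the high detection floor. Its other 7 samples lay between 5.20 and 5.70. Dkk2, which acts on the same co-receptors, Sfrp4 and Frzb, both Frizzled-like proteins, were detected on 0 of 12 arrays. Their levels ran from 4.82 to 5.05 for Dkk2, from 4.80 to 4.98 for Sfrp4 and from 5.25 to 5.84 for Frzb. Sfrp5 was detected on 1 array, of ovx MaSC-enriched replicate 2, and ran from 4.88 to 5.64. The dim Dkk3 probe was detected only on the 2 arrays of ovx MaSC-enriched replicate 2, at a mean of 6.72, and read at most 5.68 elsewhere, although the other 2 probes of the gene were bright in all 4 MaSC-enriched samples. On those 2 arrays the dim Dkk3 probe read 6.47 and 6.97, against floors of 5.81 and 5.73. The other values of the 6 dim probes are not well above background, so no fold is given. They do not show that the transcripts were absent.

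**Figure D3:**
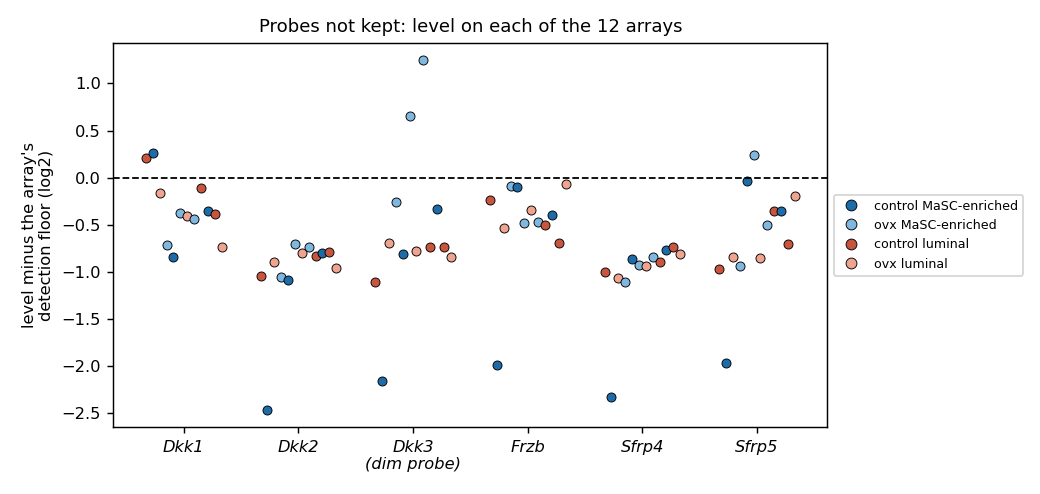
Level of the 6 probes that were not tested, as the log2 difference from the detection floor of each array, on each of the 12 arrays (points, coloured by group). Points below the dashed line at 0 lie under the floor, and Dkk2, Frzb and Sfrp4 have no point above it. The lowest point of 5 probes is the array of control MaSC-enriched replicate 1, whose floor was 7.29.

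Ovariectomy was followed by no change in the inhibitors that passed the test. In MaSC-enriched cells 0 of 6 probes passed, as did 0.0762% of all tested probes, with 4 of 6 under an unadjusted p of 0.05 against 8.63% of all probes. In luminal cells 0 of 6 passed, against 0.157% of all probes, with 5 of 6 under an unadjusted p of 0.05 against 7.2%. The control and ovx samples of all 6 probes did not overlap in MaSC-enriched cells, where 32.3% of all probes did not, nor in luminal cells, where 51.5% did not. Single arrays of Wif1 in MaSC-enriched cells did overlap, at 12.71 for control replicate 2 and 12.94 for ovx replicate 2. So did those of the brighter Dkk3 probe in luminal cells, at 6.90 for control replicate 1 and 6.96 for ovx replicate 2. With 2 samples against 2 the smallest exact p would be 0.333, so these tests rest on the spread that limma shares across probes and groups. The 6 probes are 4 genes, and the 2 probes of a gene are not independent.

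Sfrp1 had the smallest p of the members after ovariectomy. In MaSC-enriched cells its level was 2.58 higher in ovx mice on the log2 scale (SE 0.508, 95% interval 1.39 to 3.77, 5.98-fold, both ovx samples above both controls), with an unadjusted p of 0.0013 and a limma adjusted p of 0.164. The second probe was 2.47 higher (adjusted p = 0.137). Without both samples of control replicate 2, the pool with the high proliferation genes, the differences were 2.23 and 2.13 with adjusted p = 0.0407 and 0.0437, and 410 probes passed in place of 16. That fit leaves 1 control MaSC-enriched sample, replicate 1 on the array with the high detection floor, which is assumed to vary like the other groups, so the calls are not replicated in the controls. Within beadchip 1 the brighter probe differed by 2.61 and within beadchip 2 by 2.82, where 1 control stands against 1 ovx MaSC-enriched sample and no call is read from it. Not all marker sums moved with this comparison. The endothelial and fibroblast sums of ovx and control MaSC-enriched samples overlapped. The basal and myoepithelial sums overlapped narrowly, with the lower ovx sample at 162657 and the higher control sample at 162698. Without Krt14, a basal keratin, they did not overlap, at 146555 and 141680 in ovx and 132659 and 134951 in control samples. The adipocyte sum was higher in both ovx MaSC-enriched samples than in both controls. The pericyte sum was higher in both ovx MaSC-enriched samples than in both controls, but without Mcam, a pericyte and smooth muscle adhesion molecule, it overlapped, at 9363 and 4109 in ovx and 6169 and 2578 in control samples. Of the adipocyte markers, Lep, encoding leptin, was 4.77 higher in ovx MaSC-enriched cells (limma adjusted p = 0.0226), a fitted value, since it was detected in the 2 ovx samples only. Car3 and Adipoq, the other adipocyte genes named by p, differed by 1.39 (adjusted p = 0.471) and 1.28 (adjusted p = 0.501). The part of these cells in the Sfrp1 and Dkk3 differences was not tested. In luminal cells Sfrp1 was 1.36 higher in ovx mice (95% interval 0.16 to 2.55, adjusted p = 0.617). The control luminal samples, 6.49 and 7.96, were themselves farther apart than this.

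Dkk3 differed in opposite directions in the fractions. In MaSC-enriched cells both ovx samples lay above both controls, by 1.21 on average (95% interval -0.15 to 2.57, limma adjusted p = 0.635). In luminal cells both ovx samples lay below both controls, by 1.39 (log2 difference -1.39, 95% interval -2.75 to -0.03, adjusted p = 0.686). The probe was detected on 1 of 3 ovx luminal arrays, so this luminal difference rests on a level near background. The second Dkk3 probe gave 1.21 and -1.11. The basal and myoepithelial sum was also lower in both ovx luminal samples than in both controls, and without Krt14, the basal keratin that leads the list by p, it was 5868 and 7835 in ovx against 9265 and 10389 in control samples. The fibroblast sum was lower too, but most of it was Dcn, the matrix protein decorin, and without Dcn it overlapped, at 1542 and 5198 in ovx and 2277 and 8322 in control luminal samples. The part of basal or fibroblast RNA in the luminal differences of Dkk3 and Wif1 was not tested.

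Sfrp2 was lower in MaSC-enriched cells of ovx mice, by a log2 difference of -1 (95% interval -1.80 to -0.20, limma adjusted p = 0.453), and in luminal cells the difference was 0.62 (95% interval -0.18 to 1.42, adjusted p = 0.801). Wif1 differed by -0.39 in MaSC-enriched cells (95% interval -1.11 to 0.34, adjusted p = 0.781) and by -0.87 in luminal cells (95% interval -1.60 to -0.15, adjusted p = 0.578). The MaSC-enriched value of Wif1 turned to 0.12 under median scaling, a setting that moved the median of all probes in this comparison from 0.07 to 0.47. Relative to that median Wif1 stayed below the typical probe in both settings.

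**Figure D4:**
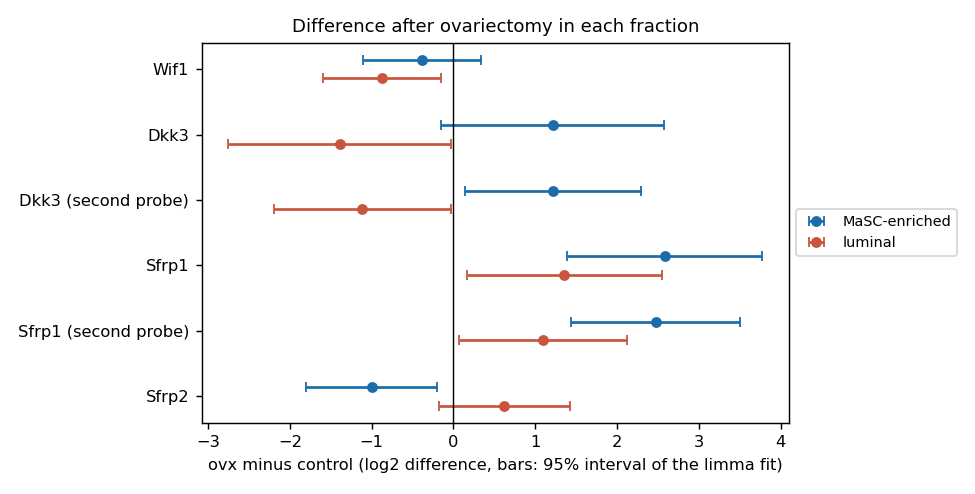
Difference between ovx and control samples (log2) for each tested probe, in MaSC-enriched cells (blue) and luminal cells (red). Bars are the 95% interval of the limma fit, before any adjustment for the number of probes. Sfrp1 lies right of 0 in both fractions, and Dkk3 and Sfrp2 lie on opposite sides in the fractions.

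Whether ovariectomy acted differently in the fractions was tested as the difference of the 2 effects. Here 0 of 6 probes passed, as did 0% of all tested probes, and 3 of 6 had an unadjusted p under 0.05 against 4.53% of all probes. The difference was 2.60 for the brighter Dkk3 probe (SE 0.818, limma adjusted p = 0.793) and -1.62 for Sfrp2 (SE 0.482, adjusted p = 0.753). The Dkk3 value includes an ovx luminal level that 1 of 3 arrays detected. For Sfrp1 it was 1.22 (95% interval -0.46 to 2.91, adjusted p = 1) and for Wif1 0.49 (95% interval -0.54 to 1.51, adjusted p = 1). The intervals for Sfrp1 and Wif1 span values from a small negative to a larger positive difference, so equal effects are not shown.

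The genes most like each member across the 8 samples were found by Pearson's r of the log2 levels over 10944 genes. For Wif1 they were Smarca1 (r = 0.998), Cyp7b1 (0.997) and Actg2 (0.995), which encode a chromatin remodeller, an oxysterol hydroxylase and a smooth muscle actin. For Dkk3 they were Eln, encoding elastin (0.995), Antxr1 (0.994) and Slc27a3 (0.994). For Sfrp1 they were Rom1 (0.993), Scx (0.993), the tendon transcription factor scleraxis, and Rasl12 (0.988). For Sfrp2 they were Mkx (0.972), Gpr3 (0.972) and Zdhhc20 (0.965). Among the members, Dkk3 and Wif1 had r = 0.974, Dkk3 and Sfrp1 0.896, and Sfrp1 and Wif1 0.846. These values describe 8 samples that fall into 2 fractions, with arrays and pools in common.

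The rest of the Wnt pathway was read from lists of other genes, over both treatments. Of all 20995 tested probes, 2421 passed as higher in MaSC-enriched cells and 2675 as lower. Of 9 tested genes for other secreted or membrane antagonists, 4 passed as higher in MaSC-enriched cells and 1 as lower. Among the higher were Igfbp4, an IGF-binding protein that can also antagonise Wnt (2.88, limma adjusted p = 0.00112), and Sostdc1, a secreted Wnt and BMP antagonist (3.18, adjusted p = 0.00271). Kremen1, a Dkk1 co-receptor, was 1.31 higher (adjusted p = 0.0121). Igfbp4 passed in each treatment, but Sostdc1 and Kremen1 passed in control mice only, at 5.04 and 2.19. In ovx mice Sostdc1 was 1.33 higher (limma adjusted p = 0.237) and Kremen1 0.43 higher (adjusted p = 0.553). For neither gene did the difference between the treatments itself pass (limma adjusted p = 0.56 and 0.756). The median of this list was 1.16, against -0.14 for all probes tested.

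The ligands were split between the fractions. Of 8 tested Wnt genes, 3 passed as higher in MaSC-enriched cells and 3 as lower. Wnt10a was higher there by 4.95 (limma adjusted p = 0.000325), while Wnt4, a known progesterone-responsive luminal ligand, and Wnt7b were lower, by -3.97 (adjusted p = 0.000254) and -3.68 (adjusted p = 0.000656). The median of the list was -0.31.

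Receptors and targets had more genes called higher than lower in MaSC-enriched cells. Of 14 tested receptor genes 6 passed as higher and 2 as lower, with a median of 0.61, and Fzd7, a Frizzled receptor, was 3.07 higher (limma adjusted p = 0.000524). Fzd8, another Frizzled receptor, was 1.57 higher (adjusted p = 0.00305), as was Ptk7, a Wnt co-receptor, by 1.29 (adjusted p = 0.00563). Of 4 tested R-spondin and Lgr genes 2 were higher and 0 lower, with a median of 1.08, led by Lgr5, an R-spondin receptor (4.33, adjusted p = 0.000276). Of 11 tested Wnt target genes 7 were higher and 1 lower, with a median of 1.42. The feedback inhibitors Nkd1 and Nkd2 were higher by 4.26 (adjusted p = 6.15e-05) and 3.57 (adjusted p = 0.000826), and Axin2 by 2.66 (adjusted p = 0.0039). Of 14 intracellular pathway genes 3 were higher and 1 lower, with a median of 0.26, among them Tcf7l1, a transcription factor of the pathway (2.45, adjusted p = 0.00162). Tcf7l1 passed in ovx mice (3.62, limma adjusted p = 0.00292) but not in control mice (1.28, adjusted p = 0.108). Its difference between the treatments did not itself pass (2.34, limma adjusted p = 0.638).

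**Figure D5:**
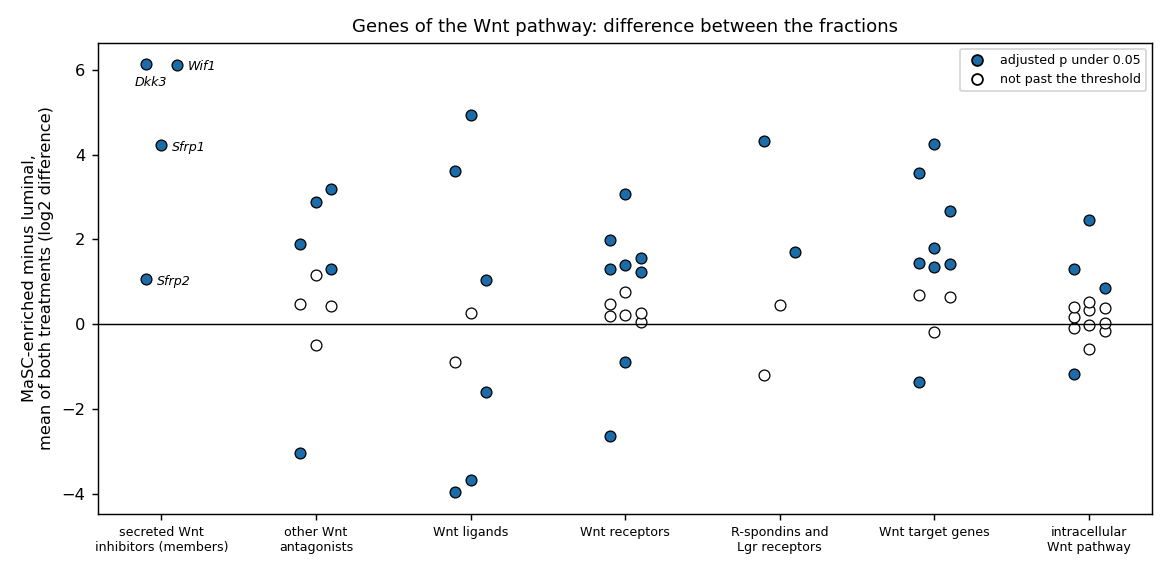
Difference between MaSC-enriched and luminal cells, as the mean of both treatments (log2), for the 4 tested inhibitors and for the tested genes of 6 lists of Wnt pathway genes. Each point is 1 gene, by its brightest probe, and filled points passed the test. Dkk3 and Wif1 lie near 6 and above every point of the 6 lists, whose highest is Wnt10a at 4.95.

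Under median scaling no called gene of the 6 lists changed direction, and 2 other antagonists, 1 ligand, 3 receptors, 1 Lgr gene, 3 targets and 2 intracellular genes lost their call, while the median of all probes went to -0.55. The list medians were then 0.72 for other antagonists, -0.58 for ligands, 0.09 for receptors, 0.71 for R-spondin and Lgr genes, 0.81 for targets and -0.27 for intracellular genes, with 3 receptors higher and 2 lower.

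In the ovx comparisons 0 genes of these 6 lists passed the test in either fraction. Of all tested probes 0.0762% passed in MaSC-enriched cells and 0.157% in luminal cells. In MaSC-enriched cells the lists had 3 of 9 other antagonists, 3 of 8 ligands, 5 of 14 receptors, 2 of 4 R-spondin and Lgr genes, 4 of 11 targets and 0 of 14 intracellular genes under an unadjusted p of 0.05. In luminal cells the same counts were 0, 1, 1, 2, 2 and 1. Of all tested probes, 8.63% had an unadjusted p under 0.05 in MaSC-enriched cells and 7.2% in luminal cells. The other antagonist with the smallest p in MaSC-enriched cells was Sostdc1, with a difference of -2.68 (limma adjusted p = 0.243), against 2.58 for Sfrp1. The receptor with the smallest p was Fzd2, at 1.90 (adjusted p = 0.143).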

How the data were processed

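Expression was measured on 12 Illumina arrays of 8 RNA samples. Per the file headers, the deposited table holds 1 intensity per probe and array with its detection p-value, and the deposited series table gives normalized log2 values, used here as an alternative. BeadStudio and limma are named, with no version, in the submitters' processing notes.

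In limma 3.58.1 (R 4.3.3), neqc corrected background (inferred from detection p-values), with an offset of 16, then quantile normalization and log2. Arrays of 1 RNA were averaged. Probes with a mean detection p under 0.05 in at least 2 of 8 samples were tested (20995, 46.4%). The 6 tested member probes were detected in 7 or 8 of the 8 samples, so their testing did not rest on 1 fraction. A mean per group was fitted, with 4 residual and 3.22 prior degrees of freedom, moderated two-sided tests and Benjamini-Hochberg adjustment over all tested probes (threshold 0.05) in 6 comparisons. The fit was tested on simulated data. The number of pools sets the precision.

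Probe symbols came from the platform annotation, updated through Entrez identifiers: 34885 probes had 1 symbol, 18 several and 10378 none. All member probes are named. From each list the genes with the smallest p are named, up to 3, besides the 3 genes most like each tested member. Cdk1, Dcn, Mcam, the undetected adipocyte markers and the marker sums without 1 gene were chosen after their values were seen. The members and lists were chosen with earlier results of these data known.

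The pool numbers of the labels pair the fractions. Deviations from group means correlated at 0.367 (control) and 0.135 (ovx) within a pool, and at 0.587 and 0.279 for samples sharing only a replicate number. Alternatives were the offset, background correction, normalization, the filter, the deposited log2 table, single arrays, beadchip, pool and replicate blocks, and leaving out samples.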

Additional observations from a re-analysis of the deposited data

Results flagged for a closer look

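In both tested probes of Dkk3 and in Sfrp2, the ovx samples moved one way in MaSC-enriched cells and the opposite way in luminal cells, with no overlap between ovx and control samples in either fraction. Of all tested probes, 32.3% did not overlap in MaSC-enriched cells and 51.5% in luminal cells. For the brighter Dkk3 probe the nearest luminal samples lay close together, at 7.07 in control and 6.96 in ovx mice. That probe was detected on 1 of 3 ovx luminal arrays. The difference of the 2 effects (MaSC-enriched minus luminal, log2) was 2.60 for the brighter Dkk3 probe (95% interval 0.68 to 4.52, unadjusted p = 0.0148, limma adjusted p = 0.793) and 2.32 for the second (95% interval 0.80 to 3.85, unadjusted p = 0.00842, adjusted p = 0.683). For Sfrp2 it was -1.62 (95% interval -2.76 to -0.49, unadjusted p = 0.0115, adjusted p = 0.753). None passed the adjustment over 20995 probes. These probes were flagged because their shifts were opposite in the fractions and did not overlap. Their intervals and unadjusted p come from the same values, so they are no separate support.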

How the results depend on the processing

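The fraction calls of Dkk3 and Wif1 held under all 21 alternatives, which for Wif1 over both treatments gave differences of 5 to 6.24. In control mice 3 member probes were called within beadchip 1, in place of 6, where 181 probes were called in all and each luminal group is 1 sample. In MaSC-enriched cells 2 member probes were called after ovariectomy when control replicate 2 was left out of both fractions, in place of 0, with 1 control sample left in each fraction and assumed to vary like the other groups. Wif1 in MaSC-enriched cells reversed to 0.12 after ovariectomy under median scaling, where the medians of all probes were 0.47 in that comparison and -0.78 and -0.31 between the fractions of control and ovx mice. The Sfrp2 difference in ovx mice ranged over all alternatives from -0.14, without ovx MaSC-enriched replicate 2, to 0.72, within beadchip 2, and reached 0.64 among the fits that leave out 1 sample. Over both treatments the Sfrp2 call was lost under 7 of 21 alternatives and in control mice under 6. In the paired fit with a replicate block, the member counts were 0, 0, 0, 6, 5 and 6 in the 6 comparisons, and no member call changed, while 5368 probes were called over both treatments in place of 5096. The causes of these shifts were not tested. Signal over background limits Dkk3 and Wif1 in ovx luminal cells.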
